A study of Mus musculus with 23 samples.

Results

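The 44 genes of the mouse collagen family in a whole-lung RNA-Seq table are described here, out of 55335 genes listed. A gene was taken when its symbol was Col, a type number, the letter a and a chain number, and each was placed in a class as fibrillar (11 genes), basement membrane (8 genes) or other (25 genes). Whole lung was profiled in 6 libraries from C57BL/6J mice. The 3 control libraries came from mice that the labels call wt and that received an isotype control antibody by the study's methods. The 3 depleted libraries, called pmn deletion in the labels, came from mice given the anti-Ly6G antibody 1A8, which removes neutrophils, and lungs were taken on the next day in the study's scheme (the methods also allow a second dose). The age and sex of these 6 mice are not stated for each library. The methods give an age range in weeks and both sexes for the mice of the study as a whole. Just before this experiment the study describes depletion at an early age, and which age applies here is not stated. No gene was altered in either group, and the antibody acts on neutrophils of the whole animal rather than of the lung alone. A further 17 libraries of sorted neutrophils serve only for levels set side by side, from lung, PB (peripheral blood) and BM (bone marrow) of WT mice and from lung and PB of mice with a conditional *Piezo1* deletion and their WT controls.

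Collagens are secreted proteins whose chains wind into a helix. Fibrillar collagens assemble into the fibrils that give tissue its tensile strength. Type I (*Col1a1*, *Col1a2*) and type III (*Col3a1*) collagen form most fibrils of lung interstitium, airway wall and large vessels, and type V chains (*Col5a1*, *Col5a2*, *Col5a3*) help to start and size these fibrils. Type IV collagen forms the sheet under epithelium and endothelium, where the *Col4a3*, *Col4a4* and *Col4a5* chains build the network of the alveolar and glomerular basement membranes. Of the other classes, type VI makes beaded filaments next to cells, types XII, XIV and XVI decorate fibrils, type VIII makes lattices around vessels, and types XIII, XVII and XXIII span the cell membrane. Fibroblasts, pericytes and smooth muscle cells are the usual sources of fibrillar chains, while endothelial and alveolar epithelial cells make much of the type IV chains.

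Values are FPKM, fragments scaled to transcript length and to the depth of the library, and levels of different genes are compared on this scale per length. The table holds no counts. From the spacing of the lowest values of genes with 1 transcript, depth was estimated at 14200000 to 18000000 fragments per library. Only 20.8% to 23.6% of those low values lay within 0.02 of a whole multiple, so reads could not be recovered and no count test was run. Genes at FPKM 1 or more in at least 3 of the 6 libraries were tested with limma on log2(FPKM + 1), a scale that understates the change of low genes. A call needed an adjusted p below 0.05 (Benjamini-Hochberg over all 13990 tested genes) and a log2 fold change above 0.5 in size. The labels number the lungs within each group but do not say that each came from its own animal, so p-values measure the spread between these samples.

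The tested fibrillar genes had lower means in the depleted lungs than in the controls, and the basement membrane sum differed less in the mean, but no collagen gene passed the call. The difference between the classes was not tested, and the ratio of their sums overlapped between the groups. The gap between the groups was narrow for several fibrillar genes. Summed over the class, fibrillar FPKM was 258 ± 25.5 (SD, n = 3) in the controls and 194 ± 30.4 (SD, n = 3) in the depleted lungs, a difference of -24.9%. The basement membrane sum was 421 ± 82.4 and 402 ± 39.6 (SD, n = 3 each), a difference of -4.48%. The call was met by 0 of 24 tested collagen genes, beside 1 of all 13990 tested genes (0.00715%). The study used another test, DESeq2 on read counts, and reported that depletion affected many genes, so the numbers called cannot be compared. That gene was *Aqp5*, a water channel of alveolar type I cells (log2 fold change -1.51, limma adjusted p = 0.0211).

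Markers were checked first. Of 9 tested neutrophil markers, 9 had a negative log2 fold change with a median of -1.33, and 8 were lower without overlap, beside 61.5% of all tested genes below 0 and 11.8% lower without overlap. The summed FPKM of the 12 listed markers was 227 to 284 in the controls and 55.1 to 139 in the depleted lungs. *S100a9*, a calcium-binding protein that fills neutrophil cytosol, was at FPKM 138, 107 and 108 in the controls and at 57.0, 52.0 and 18.2 in the depleted lungs. *Csf3r*, the receptor for the growth factor of neutrophils, was at 12.7, 11.8 and 11.4 against 5.27, 2.74 and 1.83 (log2 fold change -1.68, limma adjusted p = 0.129). *Ly6g*, which encodes the antibody's target, was at or under FPKM 0.577 in every library and was not tested. The summed FPKM of 9 lymphocyte markers was 106 to 111 in the controls and 46.6 to 91.9 in the depleted lungs. *Cd79a* and *Cd79b* had the highest control means of this list, at 36.1 and 33.0. Of the 9, 7 were lower without overlap, whereas *Nkg7* and *Cd4* overlapped. For 12 fibroblast markers the sums overlapped, at 1724 to 1870 and 1423 to 1987. Of these 12, 11 were below 0 in log2 fold change, with a median of -0.13. The summed neutrophil and lymphocyte markers were thus lower in all depleted libraries, and the part of these cells in the collagen values was not tested. In whole tissue, fewer cells of a type and less RNA per cell cannot be told apart.

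*Col3a1*, the chain of type III collagen (chr1:45311538-45349706, plus strand, mm10), was the most abundant fibrillar gene and made up 42.2% of the class sum in the controls. Its FPKM was 116, 117 and 93.7 in the controls and 61.6, 81.8 and 86.1 in the depleted lungs. Every depleted library was below every control library. The log2 fold change was -0.51 ± 0.148 (SE, n = 3 per group), with a 95% interval from -0.86 to -0.16 and a limma adjusted p of 0.277. *Col5a2*, a type V chain whose gene lies 24614 bases from *Col3a1* on the other strand, was at 17.8, 14.7 and 13.4 in the controls and at 9.78, 11.7 and 12.3 in the depleted lungs. Its log2 fold change was -0.41 ± 0.126 (SE), with an interval from -0.70 to -0.11 and a limma adjusted p of 0.3.

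*Col1a1*, on chromosome 11, and *Col1a2*, on chromosome 6, encode the chains that join in type I collagen. *Col1a1* was at FPKM 71.2, 81.8 and 65.9 in the controls and at 46.8, 60.3 and 64.2 in the depleted lungs (log2 fold change -0.36 ± 0.136, SE, limma adjusted p = 0.4). *Col1a2* was at 49.9, 50.4 and 44.2 against 32.2, 40.9 and 43.2 (log2 fold change -0.32 ± 0.12, SE, limma adjusted p = 0.398). Without depleted replicate 1, these log2 fold changes moved to -0.22 for *Col1a1* and -0.19 for *Col1a2*. For both genes the groups were apart, but the highest depleted library lay just under the lowest control. The ratio of *Col1a1* to *Col1a2* was 1.51 ± 0.0999 in the controls and 1.47 ± 0.0176 in the depleted lungs (SD, n = 3 each), and the groups overlapped. Both chains had lower means in the depleted lungs without passing the call, and a change in their proportion was not tested.

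*Col5a1*, the type V chain common to most type V molecules, was at 11.1, 9.53 and 9.12 in the controls and at 6.76, 8.06 and 8.94 in the depleted lungs. Its log2 fold change was -0.29 ± 0.117 (SE), with a limma adjusted p of 0.419. *Col5a3*, a minor type V chain, was at 1.16, 1.26 and 1.09 against 0.955, 0.751 and 0.834. It passed the filter through the control libraries alone, so its groups had to be apart, and it carries no weight in a count of members. Depleted replicate 1 was the lowest of the 6 libraries for 5 of the 6 tested fibrillar genes, and control replicate 1 or 2 was the highest for all 6.

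**Figure D1:**
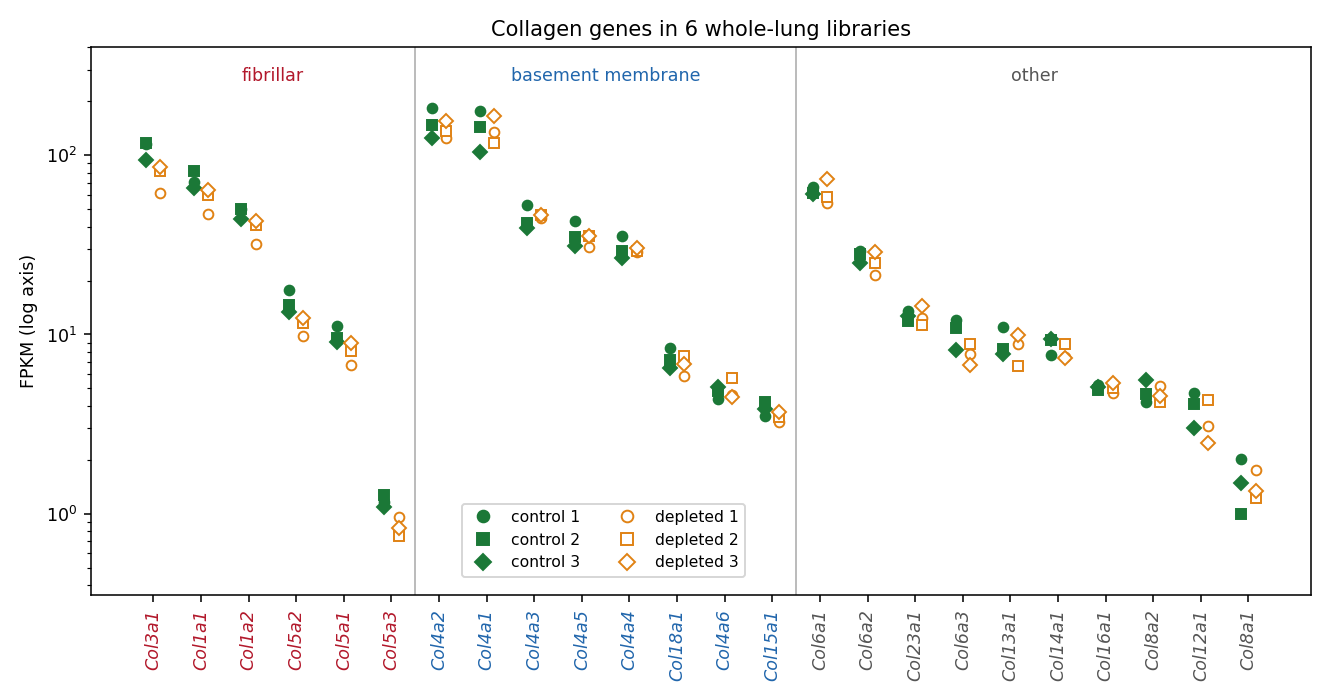
FPKM (log axis) of the 24 tested collagen genes in each of the 6 whole-lung libraries, ordered by class and mean level, with filled symbols for controls, open symbols for depleted lungs and 1 symbol shape per replicate number. The 6 fibrillar genes at the left have all open symbols below all filled ones (*Col5a3* by the way it passed the filter), while the groups of the 18 genes to their right overlap.

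*Col5a3* aside, 23 members passed the filter, and 5 of them were lower in every depleted library than in any control. These were *Col3a1*, *Col1a1*, *Col1a2*, *Col5a2* and *Col5a1*. Of the 13925 tested genes that likewise did not pass through 1 group alone, 11.6% lay so (11.8% of all 13990), and 5.59% of all tested genes were higher in every depleted library. With genes chosen by a mean of FPKM 1 or more over all 6 libraries, *Col27a1* joined the class and the count was 6 of 7 fibrillar genes, beside 11.8% of all genes so chosen. *Col27a1*, a fibrillar chain of cartilage and other tissues, was at 1.32, 0.983 and 0.86 against 0.958, 0.796 and 1.19, with overlap. The gap is narrow for several members. After each library was divided by its median ratio to the others, 2 of these 23 stayed apart (*Col3a1* and *Col5a2*), a share of 8.7% that is near the 7.25% of all genes so chosen, and *Col1a1*, *Col1a2* and *Col5a1* overlapped.

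At an unadjusted p below 0.05, 6 of 24 tested collagen genes were lower and 0 higher, beside 7.69% of all tested genes lower and 3.53% higher. These 6 were *Col3a1*, *Col5a2*, *Col1a2*, *Col1a1*, *Col5a1* and *Col6a3*. The count was 2 with median-ratio rescaling, and 2 without control replicate 1, without control replicate 2 or without depleted replicate 1. The median log2 fold change was -0.34 over the 6 tested fibrillar genes (-0.36 without *Col5a3*), -0.06 over the 8 basement membrane genes and -0.07 over the 10 other tested genes, beside -0.04 over all tested genes. Of the 24 members 22 had a log2 fold change below 0, beside 61.5% of all tested genes. With rescaling it was 16 of 24, and without control replicate 1 it was 13 of the 23 that passed the filter.

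**Figure D2:**
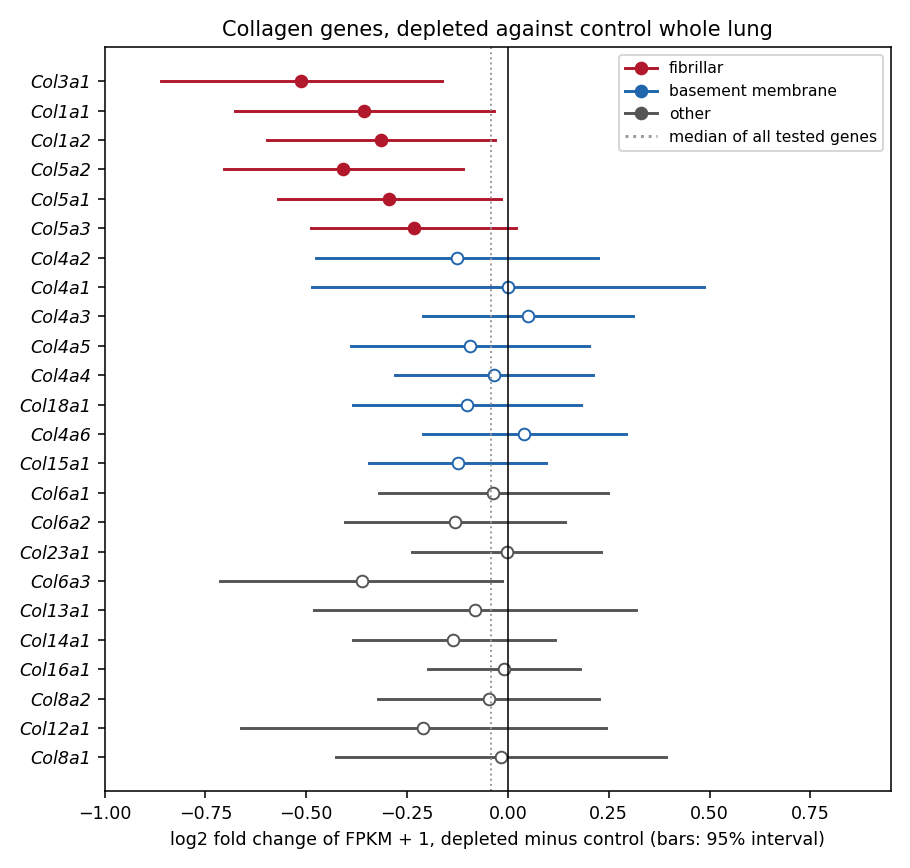
Log2 fold change of FPKM + 1, depleted minus control, for the 24 tested collagen genes, with 95% intervals from limma. Filled points mark genes whose groups did not overlap, and the dotted line is the median of all tested genes (-0.04). The fibrillar genes lie at -0.51 to -0.23, and the basement membrane genes at -0.13 to 0.05.

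To show the genes themselves, the 250 bases before the RefSeq start (GRCm38.p6) are given for the 3 fibrillar genes with separate groups whose window held no annotated exon. *Col1a2* had exons in its window, and *Col1a1* and *Col5a2* had no entry in the table used. Each sequence is written 5′ to 3′ on the gene's strand, and capitals mark motifs found on either strand. The first motif was CCAAT, which reads ATTGG on the other strand. The second was TATAAA, which reads TTTATA there. The third was GGGCGG, which reads CCGCCC there, and no motif contains another.
Col3a1, chr1:45311288-45311537, plus strand: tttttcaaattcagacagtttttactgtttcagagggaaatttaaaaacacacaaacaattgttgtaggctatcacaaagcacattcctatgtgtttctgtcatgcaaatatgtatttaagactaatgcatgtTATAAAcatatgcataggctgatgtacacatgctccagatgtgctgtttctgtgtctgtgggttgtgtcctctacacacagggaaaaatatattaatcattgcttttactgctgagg
Col5a1, chr2:27886175-27886424, plus strand: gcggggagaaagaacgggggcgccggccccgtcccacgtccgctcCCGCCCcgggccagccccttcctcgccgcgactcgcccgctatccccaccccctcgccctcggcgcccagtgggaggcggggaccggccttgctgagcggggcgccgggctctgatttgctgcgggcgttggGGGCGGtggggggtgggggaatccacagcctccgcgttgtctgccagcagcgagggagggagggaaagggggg
Col5a3, chr9:20815068-20815317, minus strand: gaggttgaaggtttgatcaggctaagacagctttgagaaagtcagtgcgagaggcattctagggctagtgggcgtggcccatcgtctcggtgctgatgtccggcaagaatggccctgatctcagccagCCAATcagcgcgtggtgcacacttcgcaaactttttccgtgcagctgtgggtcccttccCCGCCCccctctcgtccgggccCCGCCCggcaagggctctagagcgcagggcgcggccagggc

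The 3 windows differ in composition. The groups of *Col5a3* were apart by the way it passed the filter, and those of *Col5a1* overlapped after median-ratio rescaling. G and C made up 35.2% of the *Col3a1* window, 76.4% of the *Col5a1* window and 62.8% of the *Col5a3* window. *Col3a1* held 1 match of the second motif and none of the others. *Col5a1* held 2 matches of GGGCGG alone. *Col5a3* also held 2 of these, with 1 of the first motif. The GGGCGG motif was in 57.9% of 38 windows of 35 collagen genes and in 32.7% of all 32851 windows of this length. The first motif was in 34.2% of collagen windows and 33.8% of all windows, and the second in 13.2% and 12.4%. These are matches of letters and say nothing of binding.

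The basement membrane class was led by *Col4a2* and *Col4a1*, which encode the chains of the widespread type IV network and made up 36.2% and 33.3% of the class sum in the controls. These genes lie head to head on chromosome 8 and their annotated ends share 22 bases. *Col4a1* was at FPKM 176, 143 and 104 in the controls and at 135, 117 and 166 in the depleted lungs. The highest and the lowest library were both controls. Its log2 fold change was -0.00 ± 0.206 (SE), and the interval from -0.49 to 0.48 leaves room for a change in either direction as large as that of *Col1a1*. *Col4a2* was at 184, 148 and 126 against 125, 136 and 155 (log2 fold change -0.13 ± 0.149, SE, limma adjusted p = 0.804). The ratio of *Col4a1* to *Col4a2* was 0.919 ± 0.0766 and 1.006 ± 0.125 (SD, n = 3 each), with overlap.

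The chains of the alveolar network were close between groups and very even among the depleted lungs. *Col4a3* was at 52.7, 41.8 and 39.5 in the controls and at 44.8, 46.7 and 46.2 in the depleted lungs (log2 fold change 0.05 ± 0.111, SE, interval -0.21 to 0.31). *Col4a4*, which starts 72 bases from *Col4a3* on chromosome 1 and on the other strand, was at 35.3, 29.4 and 26.8 against 29.0, 29.3 and 30.4 (log2 fold change -0.03 ± 0.105, SE). The coefficient of variation of *Col4a3* was 15.8% in the controls and 2.11% in the depleted lungs. The ratio of *Col4a3* to *Col4a4* was 1.49, 1.42 and 1.47 in the controls and 1.54, 1.59 and 1.52 in the depleted lungs. The ratio was higher in every depleted library, by 6.15% in the mean. Its groups did not overlap, whereas those of the other chain ratios did. Of all tested genes, 11.8% were lower and 5.59% higher without overlap, so a separation among 6 ratios is not unusual. The share over ratios of other genes was not counted.

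*Col4a5*, the X-linked partner of those chains, was at 43.2, 35.1 and 31.3 against 30.9, 35.4 and 35.4. *Col4a6*, its neighbour on the X chromosome, was at 4.35 to 5.07 in the controls and 4.49 to 5.69 in the depleted lungs. *Col18a1*, whose cleaved end is endostatin, was at 6.51 to 8.35 and 5.88 to 7.61, and *Col15a1*, its close relative, at 3.52 to 4.21 and 3.24 to 3.67. Control replicate 1 was the highest library for 6 of the 8 basement membrane genes and for 13 of all 24 tested members. That library also had the lowest FPKM total of the table (345075, against 375470 to 391908 in the other 5). Without it, the log2 difference of the basement membrane sum moved from -0.05 to 0.09, and that of the fibrillar sum from -0.42 to -0.39.

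**Figure D3:**
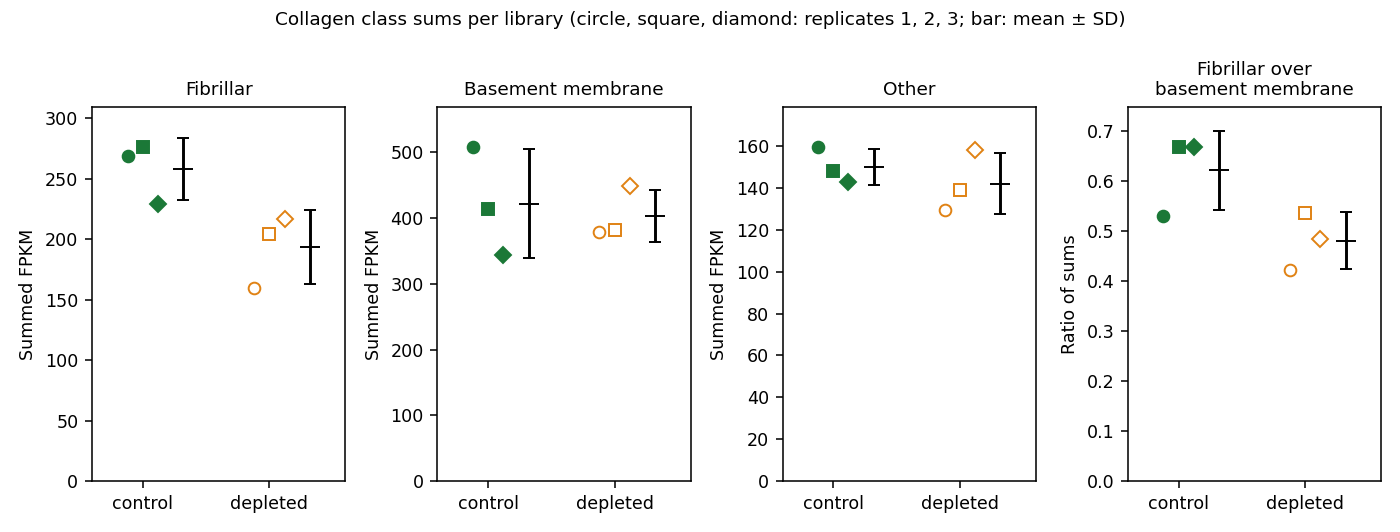
Summed FPKM of the fibrillar, basement membrane and other collagen genes, and the ratio of the first sum to the second, in each library, with the mean and SD (n = 3) beside the points. The fibrillar sum was 229 to 276 in the controls and 159 to 217 in the depleted lungs, whereas the groups overlap for the basement membrane sum, for the other genes and for the ratio.

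Relative to the whole family, fibrillar genes made up 31.2% ± 2.2 of the summed collagen FPKM in the controls and 26.2% ± 2.16 in the depleted lungs (SD, n = 3 each). Basement membrane genes made up 50.5% ± 3.25 and 54.6% ± 2.02. The ratio of the fibrillar to the basement membrane sum was 0.53, 0.666 and 0.667 in the controls and 0.422, 0.536 and 0.484 in the depleted lungs. Depleted replicate 2 lay just above control replicate 1, so the groups overlapped. The sum over all 44 genes was 714 to 935 in the controls and 666 to 823 in the depleted lungs.

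Among the other classes, *Col6a1*, *Col6a2* and *Col6a3* encode the chains of type VI filaments. *Col6a3*, the long chain, was at 12, 10.9 and 8.2 in the controls and at 7.78, 8.8 and 6.79 in the depleted lungs (log2 fold change -0.36 ± 0.148, SE, limma adjusted p = 0.426). The groups overlapped by depleted replicate 2 and control replicate 3. *Col6a1* was at 66.9, 61.7 and 61.1 against 54.2, 58.2 and 74.0 (log2 fold change -0.04 ± 0.12, SE), and *Col6a2* at 29.2, 28.3 and 25.1 against 21.6, 25.1 and 28.9. The ratio of *Col6a3* to *Col6a1* was 0.164 ± 0.0255 and 0.129 ± 0.0322 (SD, n = 3 each), and that of *Col6a1* to *Col6a2* was 2.3 ± 0.126 and 2.46 ± 0.13, both with overlap. Without depleted replicate 3, the log2 difference of the first ratio moved from -0.37 to -0.14.

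*Col23a1*, a membrane collagen, was at 11.95 to 13.5 in the controls and 11.4 to 14.4 in the depleted lungs. *Col14a1* and *Col16a1*, which sit on fibrils, were at 7.73 to 9.46 against 7.42 to 8.88 and at 4.92 to 5.2 against 4.73 to 5.35. Their log2 fold changes were -0.14 (95% interval -0.39 to 0.12) and -0.01 (-0.20 to 0.18), and that of *Col12a1*, which also binds fibrils, was -0.21 (-0.66 to 0.24, and -0.38 to -0.07 with 1 library left out). The difference of these genes from the fibrillar chains was not tested. Among the 24 tested members, the largest spread within a group was that of *Col8a1*, a type VIII chain, with a coefficient of variation of 34.1% in the controls (2.01, 0.99 and 1.48). Next came *Col12a1* with 28.6% in the depleted lungs (3.07, 4.33 and 2.49), and *Col4a1* with 25.5% in the controls. The ratio of *Col8a1* to *Col8a2* was 0.212 to 0.475 in the controls and 0.289 to 0.341 in the depleted lungs.

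The remaining 20 members did not pass the filter and were not tested. Of these, 5 were fibrillar and 15 of other classes, 10 had a mean under FPKM 0.1 and 7 were listed at 0 in at least 1 library. Collagens known from cartilage were low. *Col2a1*, the main fibrillar chain of cartilage, was at 0 to 0.0517, *Col9a1* at 0 to 0.0109 and *Col11a1* at 0 to 0.046, while *Col9a3* reached 0.182, *Col10a1* 0.262 and *Col11a2* 0.268. Of 11 chondrocyte markers 2 passed the filter, *Matn4* at 11.5 to 14.8 and *Cytl1* at 11.5 to 22.5, whereas *Acan*, the cartilage proteoglycan, was at or under 0.0223. Of these 20 genes 2 had every depleted library below every control, beside 11.8% of all tested genes, and the share of all untested genes was not counted. *Col11a2* was at 0.239 to 0.268 against 0.198 to 0.219, and *Col26a1* at 0.0808 to 0.188 against 0.0467 to 0.066. At such levels the table does not show how many reads lie behind a value.

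*Col17a1*, a hemidesmosome collagen of basal epithelial cells, stood out in 1 library. It was at 2.53 in depleted replicate 2 and at 0.474 to 0.692 in the other 5. In the same library *Krt5*, a keratin of basal cells, was at 22.8, against 0.101 to 1.43 elsewhere, and *Trp63*, the basal cell transcription factor, at 0.558, against 0.125 to 0.331. *Col7a1*, the anchoring fibril collagen, was at 0.697 there and at 0.48 to 0.819 elsewhere. The part of basal cells in this value was not tested.

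Genes that build, cut and bind collagen were then listed beside the chains, and 0 of 106 distinct tested genes of these 8 lists passed the call. At an unadjusted p below 0.05, 16 were lower and 5 higher by limma, shares that stand beside the 7.69% and 3.53% of all tested genes. The 16 include *Mmp9* and *Mmp8*, which are also on the neutrophil list. Among 21 tested genes of collagen synthesis and secretion, 2 were lower and 3 higher at an unadjusted p below 0.05, and the median log2 fold change was -0.01. *Serpinh1*, the collagen chaperone HSP47, was at 125, 152 and 127 in the controls and at 68.6, 117 and 75.0 in the depleted lungs. Its groups did not overlap (log2 fold change -0.66 ± 0.197, SE, limma adjusted p = 0.287). *Creb3l1*, a transcription factor that drives type I collagen genes, was at 12.3 to 14.7 against 8.73 to 10.7 (log2 fold change -0.40 ± 0.101, SE).

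A pair of genes for prolyl 4-hydroxylase subunits had higher values in the depleted lungs. *P4ha2*, a catalytic subunit of prolyl 4-hydroxylase, was at 5.49, 6.32 and 6.33 in the controls and at 7.71, 8.3 and 9.8 in the depleted lungs (log2 fold change 0.44 ± 0.106, SE, limma adjusted p = 0.216). *P4ha1*, the more abundant catalytic subunit, named here after its values were seen, was at 23.7 to 26.1 against 28.0 to 34.1. *P4hb*, their shared partner, was at 215 ± 10.3 and 214 ± 2.74 (SD, n = 3 each). The groups overlapped for *P4ha3*, which was not tested, and for the prolyl 3-hydroxylase genes *P3h1*, *P3h2* and *P3h3*, with log2 fold changes of -0.14, -0.06 and 0.03 (these names were also added after their values were seen). *Fkbp14*, a folding enzyme for collagen, was at 2.63 to 3.57 against 3.92 to 7.11 (log2 fold change 0.72 ± 0.194, SE, limma adjusted p = 0.251).

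Of 10 tested genes of propeptide cleavage and cross-linking, 9 had a log2 fold change below 0, with a median of -0.13. Among all tested genes 61.5% were below 0, with a median of -0.04. *Pcolce*, which speeds removal of the fibrillar propeptide, was at 28.0, 31.2 and 30.2 against 22.2, 21.3 and 26.5 (log2 fold change -0.35 ± 0.0973, SE, limma adjusted p = 0.274). *Loxl1*, a cross-linking oxidase of elastin and collagen, was at 25.2 to 35.2 against 19.5 to 25.0. *Lox*, its relative, also named after its values were seen, spread too widely to compare, at 10.6 to 18.0 against 9.37 to 19.7. Of 14 tested fibril-associated genes, only *Lum* (lumican) had an unadjusted p below 0.05 (log2 fold change -0.40 ± 0.139, SE, limma adjusted p = 0.355), and *Sparc*, a collagen-binding protein, was at 741 ± 112 and 628 ± 98.6 (SD, n = 3 each).

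Of 16 tested elastic fibre genes, 15 had a log2 fold change below 0, with a median of -0.15. Of all tested genes 61.5% were below 0, with a median of -0.04. *Eln*, which encodes elastin, was at 93.5, 69.3 and 44.95 in the controls and at 23.6, 36.0 and 51.4 in the depleted lungs. The difference was large in the mean (log2 fold change -0.89 ± 0.333, SE, limma adjusted p = 0.387), but depleted replicate 3 was above control replicate 3. *Fbn1*, fibrillin of the microfibril, was at 7.86 to 12.8 against 6.22 to 7.65. Of 15 tested laminin and other basement membrane genes, 13 had a log2 fold change below 0, beside the same 61.5% of all tested genes. Their median was -0.09, with 0 at an unadjusted p below 0.05. The lowest was *Lama4*, a laminin chain of vessel walls (log2 fold change -0.19 ± 0.101, SE). Without control replicate 1, the log2 fold change was -0.10 for *Lama4*, -0.29 for *Fbn1*, -0.25 for *Loxl1*, -0.14 for *Sparc*, -0.29 for *Mmp2*, -0.25 for *Mrc2* and -0.24 for *Pdgfrb*, each nearer to 0 by over 1.5 times than with all 6 libraries. Without depleted replicate 1 it was -0.12 for *Sparc* and -0.28 for *Mmp2*.

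**Figure D4:**
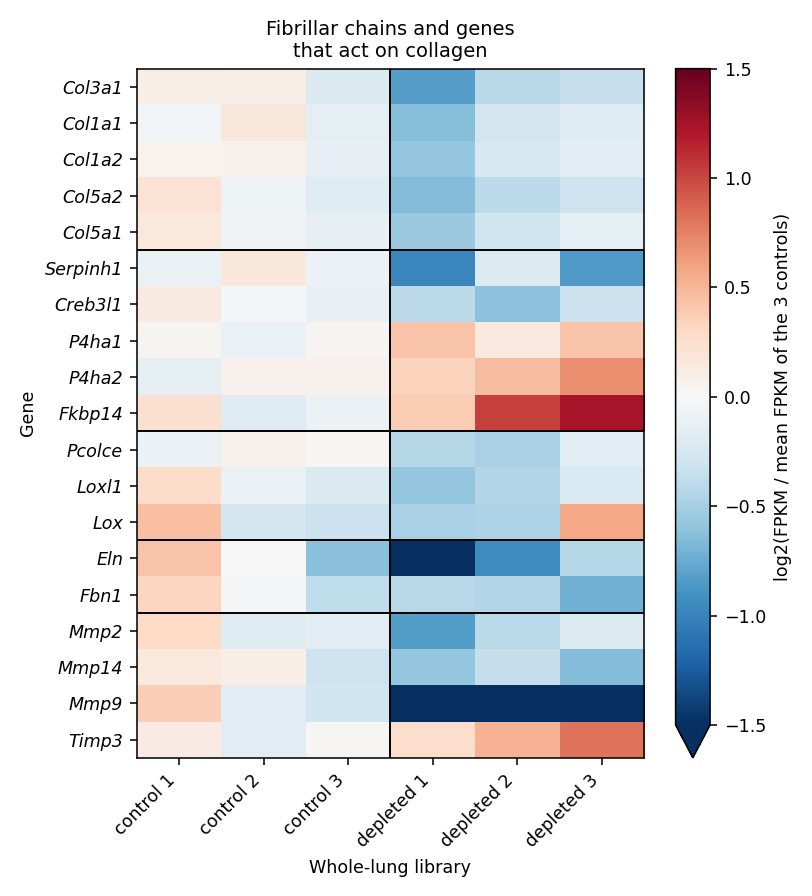
Log2 of FPKM over the mean of the 3 controls, per library, for 5 fibrillar chains and genes that act on collagen, with blue for lower and red for higher and the scale ending at -1.5 and 1.5. In the 3 depleted columns the fibrillar chains, *Serpinh1*, *Pcolce* and *Mmp14* are below 0, whereas *P4ha1*, *P4ha2*, *Fkbp14* and *Timp3* are above 0.

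Among 9 tested proteases and inhibitors, 4 were lower and 1 higher at an unadjusted p below 0.05. Over all tested genes these shares were 7.69% and 3.53%. Those 4 include the neutrophil markers *Mmp9* and *Mmp8*. *Mmp9*, a gelatinase stored in neutrophil granules and a member of the neutrophil list too, was at 11.2, 7.71 and 7.06 in the controls and at 2.87, 1.76 and 1.72 in the depleted lungs. Its log2 fold change was -1.63 ± 0.2 (SE), with a limma adjusted p of 0.0762. *Mmp8*, the neutrophil collagenase, is in both lists as well and was at 2.7, 2.03 and 1.4 against 1.23, 1.31 and 1.29. *Mmp14*, a membrane collagenase, was at 10.1 to 14.0 against 7.99 to 9.75, and *Mmp2*, the gelatinase it activates, at 32.3 to 45.3 against 20.6 to 31.97. *Timp3*, an inhibitor held in the matrix, was at 92.6 to 112 against 123 to 181 (log2 fold change 0.53 ± 0.146, SE, limma adjusted p = 0.261).

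Of 7 tested collagen receptors, 7 had a log2 fold change below 0, beside 61.5% of all tested genes. Their median of -0.05 was near the -0.04 of all tested genes. *Mrc2*, an uptake receptor for collagen fragments, was at 11.6 to 18.0 against 9.43 to 11.2. In the TGF-beta pathway, the main inducer of fibrillar collagen, 4 of 15 tested genes were lower and 1 higher at an unadjusted p below 0.05. These stand beside 7.69% and 3.53% of all tested genes. The median log2 fold change of the list was -0.10. *Itgb6*, an epithelial integrin chain that frees active TGF-beta, was at 11.9, 11.02 and 8.16 against 6.66, 6.29 and 5.8 (log2 fold change -0.64 ± 0.137, SE, limma adjusted p = 0.183). *Smad7*, an inhibitor of the pathway, was at 17.2, 4.79 and 13.95 against 18.4, 16.5 and 15.3, and *Itgav*, the integrin partner chain of *Itgb6*, at 2.78, 6.67 and 6.54 against 6.67, 8.52 and 5.99. Both had higher means in the depleted lungs, with log2 fold changes of 0.60 ± 0.392 and 0.41 ± 0.28 (SE). These were 0.10 for *Smad7* without control replicate 2 and 0.072 for *Itgav* without control replicate 1. *Smad4*, the shared signal carrier and the gene that was higher, was at 20.2 to 22.2 against 24.3 to 26.8. *Tgfb3*, a ligand, was at 14.9 to 18.0 against 11.4 to 12.9 (log2 fold change -0.39 ± 0.0917, SE, limma adjusted p = 0.215).

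Cells that make fibrillar chains were checked by their markers. *Pdgfrb*, of pericytes, was at 20.7 to 32.3 in the controls and 15.3 to 20.4 in the depleted lungs (log2 fold change -0.43 ± 0.178, SE, limma adjusted p = 0.436), while the median over 10 smooth muscle and pericyte markers was -0.02. The median was -0.04 over 11 endothelial markers, -0.13 over 4 mesothelial, -0.32 over 6 adipocyte, 0.05 over 7 striated muscle, 0.11 over 5 airway epithelial, 0.03 over 10 alveolar epithelial, -0.23 over 5 erythroid and 0.13 over 2 tested chondrocyte markers. The part of cell numbers in the fibrillar values was not tested.

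Neutrophils themselves were then examined for collagen RNA, in 17 libraries of sorted neutrophils from the same series. These were 9 libraries of WT lung, PB and BM (3 each), and 8 libraries of lung and PB from WT mice and from mice with a conditional *Piezo1* deletion driven by Vav1 in blood cells (2 each). The tables were normalised apart from the whole-lung table, so levels are set side by side and not tested. Of all 44 members, 6 had a higher mean in sorted WT lung neutrophils of the first experiment than in control whole lung. These were *Col2a1*, *Col7a1*, *Col9a2*, *Col9a3*, *Col11a2* and *Col20a1*, none of which passed the whole-lung filter. In WT lung neutrophils of the *Piezo1* experiment, *Col7a1* (mean 0.112 beside 0.689) and *Col20a1* (0.188 beside 0.467) were instead below control whole lung. The others were again above it. *Col2a1* and *Col9a2* were near 0 everywhere, with means of 0.0601 and 0.00708 in lung neutrophils of the first experiment, beside 0.0196 and 0 in control whole lung. *Col3a1* was at or under FPKM 0.105 in sorted neutrophils, beside a mean of 109 in control whole lung, *Col1a2* at or under 0.309 beside 48.2, and *Col4a1* at or under 0.125 beside 141.

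In the sorted libraries 39 of 44 members never reached FPKM 1, and the 5 that did were *Col1a1*, *Col5a1*, *Col7a1*, *Col11a2* and *Col20a1*. *Col1a1* was at 1.78, 2.14 and 2.03 in BM neutrophils, against 0.403 to 0.572 in lung and 0.119 to 0.154 in PB neutrophils of the same experiment. *Col5a1* was at 1.69 to 2.08 in BM, 0.0617 to 0.11 in lung and 0.0447 to 0.14 in PB of that experiment, with lung and PB overlapping, and at or under 0.196 in the other experiment. *Col11a2*, a minor fibrillar chain known from cartilage, was higher in sorted neutrophils than in lung tissue, at 7.33, 8.13 and 7.83 in lung, 9.04, 11.8 and 4.62 in PB and 3.04, 3.6 and 3.58 in BM, beside 0.255 ± 0.0149 (SD, n = 3) in control whole lung. In the *Piezo1* experiment *Col11a2* was at 1.03 and 1.15 in WT lung neutrophils and at 0.633 and 0.626 in those with the deletion. *Col20a1*, whose function is little known, was at 1.55 to 2.91 in the first experiment and at or under 0.358 in the second, and those experiments were also normalised separately.

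**Figure D5:**
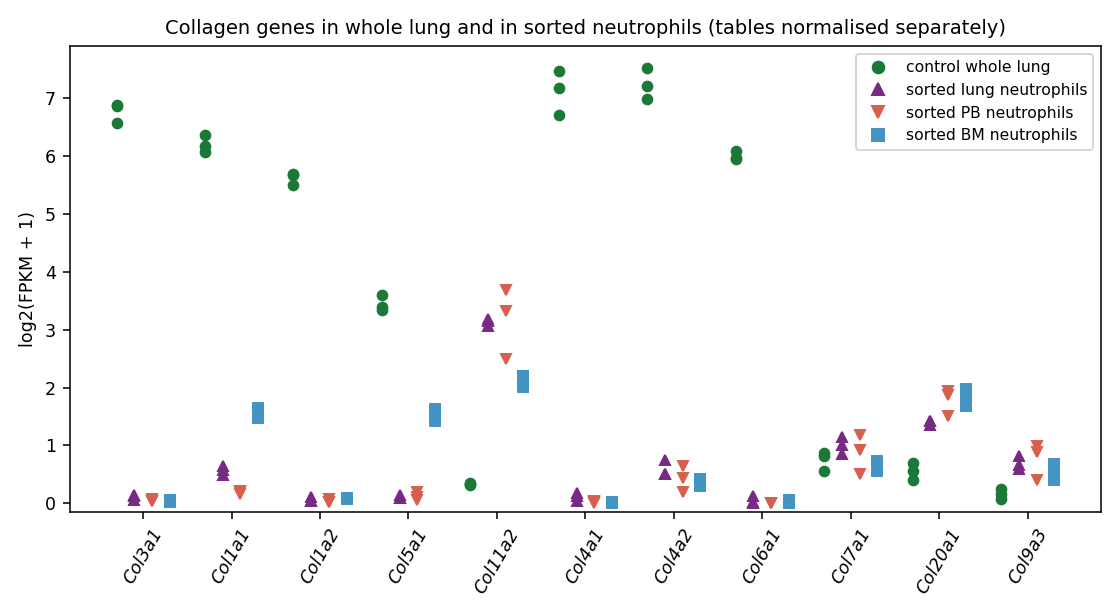
Log2(FPKM + 1) of 11 collagen genes in the 3 control whole-lung libraries and in the 3 libraries each of sorted WT lung, PB and BM neutrophils, from tables normalised separately. *Col3a1*, *Col1a2*, *Col4a1* and *Col6a1* are near 0 in neutrophils and high in whole lung, whereas *Col11a2*, *Col20a1* and *Col9a3* are higher in these neutrophils of the first experiment.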

How the data were processed

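Whole lung was measured by poly(A) RNA-Seq in 3 control and 3 depleted libraries. Per the labels' processing notes, the authors used fastp, HISAT2 and HTSeq with the mm10 build, with no versions given. The values the authors deposited are FPKM per Ensembl gene, and the sorted neutrophil tables are FPKM per symbol, normalised apart. The methods and the labels name different library kits, and strand use is not given in the sources used here. Reads that lie in bases shared by genes on opposite strands thus cannot be assigned. For *Col4a1* and *Col4a2* these are 22 bases, and the rest of both genes is not shared between them. Comparisons used limma 3.58.1 in R 4.3.3 with trend and robust options on log2(FPKM + 1), for genes at FPKM 1 or more in at least 3 of 6 libraries. The thresholds were those of the study for whole lung, but its test, DESeq2 on counts, was not used. Depth could only be estimated (14200000 to 18000000 fragments per library). On simulated data for this comparison with 13801 genes, 77 of 92 genes changed by a log2 fold change of 1 and 93 of 99 changed by 2 were recovered, and 8 unchanged genes were called. The tested collagen genes lay at -0.512 to 0.05, and changes of this size were not simulated, so their recovery is not known. Coordinates come from GENCODE vM21 and promoters from RefSeq GRCm38.p6. Members and lists were chosen with earlier results of these data known. Named genes were the 4 most abundant members per class, the 3 with the largest coefficient of variation, the chains of the ratios and neutrophil markers. Up to 4 members per list with the largest change were also named. Others were named after their values were seen, and only some are marked so where they appear. *Col17a1*, *Krt5*, *Trp63*, *Col26a1*, *Smad4* and *Col11a2* are among those without a mark. Whether replicate numbers pair samples across the groups is not stated in the labels. Correlations of same-numbered libraries, as deviations from the group mean, were 0.0593, 0.0438 and -0.0266. Those of differently numbered libraries were -0.0916 to 0.0571. With 3 libraries per group these values cannot show whether samples were handled in pairs.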

Additional observations from a re-analysis of the deposited data

How the results depend on the processing

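Results were refitted with no filter or one at FPKM 0.1, with a pseudocount of 0.1, with median-ratio rescaling, with a replicate block, without limma's trend and robust options, on the adjusted p alone, and without each library. The number of collagen genes past the call was 0 under each of these, also with the replicate block, and the lowest adjusted p of any member was 0.246 to 0.553. Over all genes the number called was 1. It was 4 with the pseudocount of 0.1, 0 without a filter and 5 with the replicate block, and 0 to 12 with 1 library left out. Every fibrillar gene that was fitted had a negative log2 fold change under each alternative (5 to 11 genes). The 11, fitted with no filter, include *Col2a1* and *Col11a1*, which were at 0 in several libraries. These low genes and *Col5a3* carry no weight in that count. The median over the 6 tested in the report, or the 5 of them left when a control was left out, was -0.42 to -0.25. Class sums and chain ratios moved by less than 1 SD between replicates, with log2 differences of -0.51 to -0.29 for the fibrillar sum and -0.19 to 0.09 for the basement membrane sum over the libraries left out.
Signs changed for members near 0. With rescaling, log2 fold changes turned to 0.053 for *Col4a1*, 0.019 for *Col4a4*, 0.017 for *Col6a1*, 0.048 for *Col23a1*, 0.035 for *Col16a1* and 0.015 for *Col8a1*. With 1 library left out, they ranged from -0.257 to 0.015 for *Col4a2*, -0.202 to 0.174 for *Col4a1*, -0.031 to 0.172 for *Col4a3*, -0.197 to 0.03 for *Col4a5*, -0.12 to 0.074 for *Col4a4*, -0.049 to 0.094 for *Col4a6*, -0.166 to 0.054 for *Col6a1*, -0.088 to 0.07 for *Col23a1*, -0.192 to 0.066 for *Col13a1*, -0.048 to 0.026 for *Col16a1*, -0.124 to 0.045 for *Col8a2* and -0.168 to 0.129 for *Col8a1*. The cause was not tested. *Mmp9* passed the call with the replicate block (adjusted p = 0.0268). Whether the replicate numbers pair the samples is not known. With 3 libraries per group and a read depth that is only estimated, small changes of low members could not be resolved.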
